A study of Mus musculus with 60 samples.

Results

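A/J, BALB/cJ, C3H/HeJ and CBA/J are inbred mouse strains that share an ancestor, the Bagg albino stock. BALB/c is that stock itself after inbreeding. A/J came from a cross of Bagg albino mice with another albino stock, and C3H and CBA came from crosses of Bagg albino with DBA mice, so A/J, C3H and CBA carry other ancestry beside that of the Bagg stock. The strains were chosen by name, from textbook genealogy and without use of any measured value. Their 4 water arrays were set against the water arrays of the other 26 strains, out of 60 arrays in all, and the fluoxetine arrays of the same 30 strains served as a check.

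The series measured gene expression in the cortex of male mice aged 10 to 11 weeks. Each array held RNA pooled from 3 mice of 1 strain and 1 treatment. In the water group the mice drank plain water (0 mg/kg fluoxetine), and in the fluoxetine group they received 18 mg/kg per day of fluoxetine, an antidepressant that blocks serotonin reuptake, for 21 days. The groups compared were the water arrays of the 4 Bagg albino-derived strains (n = 4), the water arrays of the other strains (n = 26), the fluoxetine arrays of the 4 strains (n = 4) and the fluoxetine arrays of the other strains (n = 26). The others are SWR/J, 129S1/SvImJ, SM/J, AKR/J, SJL/J, BTBRT T(+) tf/J, RIIIS/J, BUB/BnJ, PL/J, C57BL/6J, P/J, C57BLKS/J, NZW/LacJ, C57BR/cdJ, NZB/BlNJ, C58/J, NOR/LtJ, CE/J, NOD/LtJ, DBA/2J, MRL/MpJ, FVB/NJ, MA/MyJ, I/LnJ, LP/J and LG/J. Some of them are related to the 4 strains: DBA/2J shares the DBA parent of C3H and CBA, and MRL/MpJ has C3H ancestry. No mouse was measured on its own, and the strain was the replicate, so p-values mark the spread between strains.

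A transcript that differs between inbred strains at rest often traces to a local sequence variant, such as a deletion, an inserted retrovirus or an altered splice or polyadenylation site, and strains that share a stretch of DNA by descent can share such a variant. A variant can also lie under the array's probes and alter hybridisation without altering the amount of RNA. Textbook examples in these strains are the low Zhx2 allele of BALB/cJ and the copies of Glo1 that some inbred strains carry in addition.

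All levels are log2 intensities after GCRMA background correction, and the lowest level on every array is a floor of 2.07, shared by 25.96% to 27.91% of probe sets. Levels under log2 4 were given no order. No measure of array quality passed an exact two-sided permutation test of the group means over the 30 water arrays. On single arrays, the 3'-to-5' signal of Actb was 1.53 in BALB/cJ, just above the 1.17 to 1.52 of the other 26. It was 1.26 to 1.28 in A/J, C3H/HeJ and CBA/J, below the others' median of 1.40. The 3'-to-5' signal of Actb differed by -0.06 (p = 0.251) and that of Gapdh by -0.04 (p = 0.312), the spike-in controls by -0.05 (p = 0.679), the median intensity by 0.02 (p = 0.422) and the share of probe sets at the floor by 0.29 percentage points (p = 0.318), each as the 4 strains minus the other 26. All 7 tested markers of cortical excitatory neurons and 9 of 9 upper-layer markers were measured. In contrast, 4 hypothalamic markers (Oxt, Avp, Hcrt and Pomc), 5 choroid plexus markers and 5 hippocampal markers stayed under log2 4 on all water arrays. The 2 tested choroid plexus markers were measured. Ttr read 9.27 in A/J, 9.80 in BALB/cJ, 5.49 in C3H/HeJ and 7.53 in CBA/J, against 5.07 to 15.09 in the others. Kcnj13 read 5.27, 6.23, 6.63 and 6.81 in the same strains, against 4.70 to 6.74. Another 4 hippocampal markers passed the filter.

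Baiap2l1 separated the 4 strains from nearly all others, and few other genes passed the test. Of 11886 genes tested with limma and Benjamini-Hochberg adjustment at 0.05, 8 (0.0673%) differed between the water arrays of the 4 strains and those of the other 26: Baiap2l1, Slc26a7 and Cacng6 were higher and Sqle, Zfp839, Nkx2-2, Prr16 and Gm21953 lower. In the fluoxetine arrays 8 genes (0.0673%) passed, with Baiap2l1, Col22a1, Slc9b2 and Kif5b higher and Cript, Fam104a, Zkscan5 and Pdxdc1 lower. Baiap2l1 passed in both with the same sign (0.00841% of the genes tested), though it would not have met the filter without the arrays of the 4 strains. All 8 water calls had the same sign in the fluoxetine arrays and 5 of them had an unadjusted p under 0.05 there, while all 8 fluoxetine calls had the same sign and an unadjusted p under 0.05 in the water arrays. With the mean of both arrays of a strain as its value, 24 genes (0.202%) passed, 8 higher and 16 lower, and 12 of these 24 had passed in neither set alone. Some counts rested on 1 strain. Without CBA/J the water count was 5 and the fluoxetine count 3, the count called in both was 5 without A/J, 5 without BALB/cJ and 3 without C3H/HeJ, and the count on the mean of both was 8, 15, 8 and 8 without A/J, BALB/cJ, C3H/HeJ and CBA/J. These counts are over the same 30 strains, and the fluoxetine arrays repeat the strains, so they bear on the pools and arrays and not on the choice of strains.

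Most differences between the 4 strains and the others were small. The median absolute difference was 0.08 and the median difference -0.03 in water arrays, and 70 genes differed by more than 1, of which 69 had the same sign in fluoxetine arrays. At an unadjusted p under 0.05, 300 genes were higher (2.52%) and 786 lower (6.61%). Complete separation was rarer still: in 2 genes (0.0168%), Prr16 and Ankrd34a, the 4 water values lay outside the range of the 26 others, and in 3 genes (0.0252%), Slc9b2, Nptx2 and Mrpl47, the 4 fluoxetine values did. No gene was separated in both sets.

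**Figure D1:**
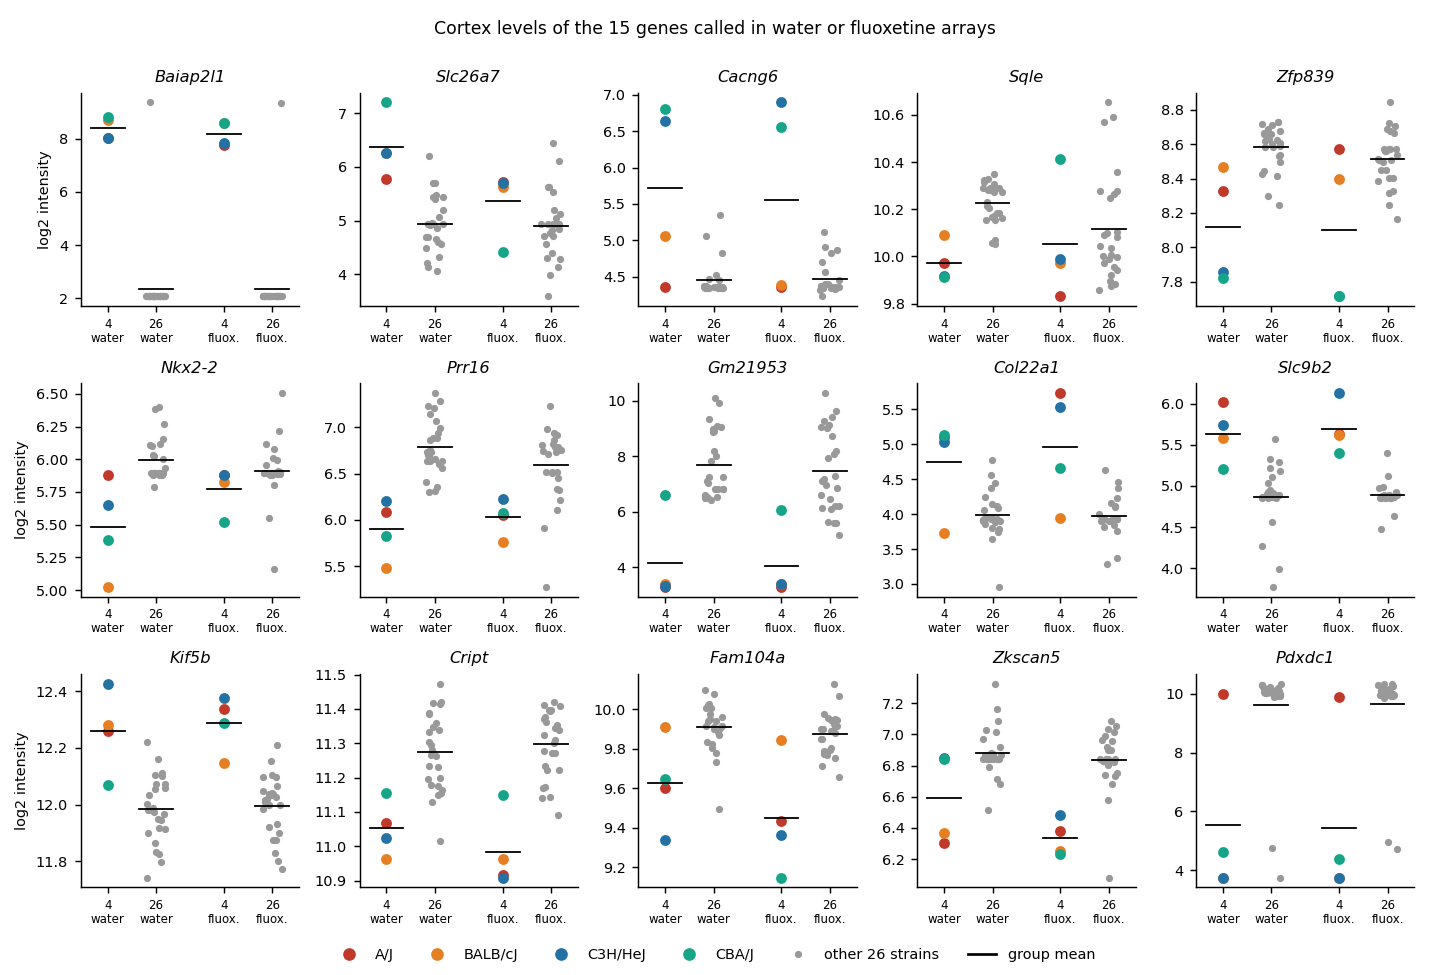
Log2 intensity (y axis) of the 15 genes called in water or fluoxetine arrays, with the 4 Bagg albino-derived strains in colour left of the other 26 strains in grey for each treatment, and a black line for the group mean. Baiap2l1 lies at 7.75 to 8.80 in the 4 strains and at the floor of 2.07 in all others but PL/J, and Cacng6 is high in C3H/HeJ and CBA/J only among the 4.

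Baiap2l1 encodes an I-BAR protein that bends membranes and links them to actin. Its water levels were 8.01 in A/J, 8.71 in BALB/cJ, 8.04 in C3H/HeJ and 8.80 in CBA/J, against the floor of 2.07 in 25 of the other 26 strains and 9.36 in PL/J. The fluoxetine levels were 7.75, 8.59, 7.83 and 8.60 in the same strains, against 2.07 in the same 25 strains and 9.35 in PL/J. The 4 strains and PL/J thus formed a high class with no intermediate level in any of 60 arrays. The difference was 6.04 ± 0.70 (SE; limma adjusted p = 1.51e-05) in water and 5.84 ± 0.70 (adjusted p = 1.6e-05) in fluoxetine arrays. Baiap2l1 reached log2 4 on 10 of 60 arrays, those of the 4 strains and PL/J, and the filter asked for 6. The gene thus entered the test only through the high levels of the 4 strains, and its p-values are given as a description. Since the floor only bounds a level, the fold is a lower bound: set against log2 4, the 4 strains were at least 21.0-fold higher than the 25 strains in water and at least 18.3-fold higher in fluoxetine arrays. The second Baiap2l1 probe set gave 7.01, 7.97, 7.40 and 7.64 in the 4 strains, against a median of 2.07 and a highest value of 8.34 in the other 26. Baiap2l1 passed the test in water, in fluoxetine and in the mean of both when any of the 4 strains was left out, with differences of 5.70 to 6.16.

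The RefSeq promoter of Baiap2l1 is shown because the gene marks the 4 strains; the reference sequence comes from C57BL/6J, a strain whose arrays list the gene at the floor, so it carries no Bagg-specific letter. It spans 250 bases before to 50 bases after the annotated start, at chr5:144358063-144358362 on the minus strand of GRCm38.p6. Capitals mark the CCAAT box (CCAAT, or ATTGG on the opposite strand) and the GC box (GGGCGG, or CCGCCC on the opposite strand).
Baiap2l1 promoter: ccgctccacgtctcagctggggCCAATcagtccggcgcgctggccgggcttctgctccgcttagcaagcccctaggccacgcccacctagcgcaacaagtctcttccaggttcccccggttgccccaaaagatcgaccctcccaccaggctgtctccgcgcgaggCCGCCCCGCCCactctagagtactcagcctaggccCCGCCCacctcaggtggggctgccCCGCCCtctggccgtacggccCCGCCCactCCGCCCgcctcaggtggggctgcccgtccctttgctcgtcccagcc
The window holds 1 CCAAT box and 6 GC boxes, 2 of which overlap. Of 32851 mouse promoters of this length, 37.4% hold a CCAAT box and 35.7% a GC box.

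The next tested gene beside Baiap2l1 on the chromosome is Nptx2, a secreted neuronal pentraxin that gathers AMPA receptors at synapses, and it went the other way. Its water levels were 8.92, 8.74, 8.47 and 8.54 in A/J, BALB/cJ, C3H/HeJ and CBA/J, against a range of 8.75 to 10.29 and a median of 9.54 in the other 26. In fluoxetine arrays the 4 strains had 8.86, 8.56, 8.58 and 8.90, all below the lowest of the others (9.12). The water difference of -0.84 ± 0.18 missed the threshold (limma adjusted p = 0.0636), and the difference of the means of both arrays, -1.12 ± 0.25, passed it (adjusted p = 0.0482) but not when any 1 of the 4 strains was left out (adjusted p 0.139 to 0.327). A second Nptx2 probe set was under log2 4 in all 4 strains and in its median over the others (3.34), with a highest value of 5.78 in the others. It reached log2 4 on 22 of 60 arrays. Its fitted water difference had the same sign (-1.59), but with most levels under log2 4 the size is not exact. The other near neighbours differed less: Bri3 by 0.03, Tecpr1 by -0.30 and Tmem130 by -0.21, none past the threshold. One further run of neighbouring calls was found in the mean of both arrays: Fam104a was lower (-0.36 ± 0.07, adjusted p = 0.0241) and the next gene, D11Wsu47e, higher (0.52 ± 0.11, adjusted p = 0.0312). BALB/cJ did not share this in water: it read 9.91 for Fam104a and 7.27 for D11Wsu47e, against medians of 9.92 and 7.35 in the others. Both calls were lost without A/J, C3H/HeJ or CBA/J (limma adjusted p 0.0966 to 0.342). No run held 3 or more called genes.

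Prr16, also known as Largen, has a role in cell size. It had water levels of 6.09 in A/J, 5.48 in BALB/cJ, 6.21 in C3H/HeJ and 5.83 in CBA/J, all below the 26 others, whose range was 6.30 to 7.37. The difference was -0.89 ± 0.16 (limma adjusted p = 0.0216). In fluoxetine arrays the difference was -0.56 ± 0.20 (unadjusted p = 0.00808, adjusted p = 0.759), and 4 other strains lay at or below the highest of the 4. The call did not hold without BALB/cJ (-0.75, adjusted p = 0.0989) or CBA/J (-0.87, adjusted p = 0.0648).

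Zfp839, a zinc finger gene, was low mainly in C3H/HeJ (7.85) and CBA/J (7.82), with 8.33 in A/J and 8.47 in BALB/cJ, against 8.24 to 8.73 in the others. The difference was -0.47 ± 0.09 in water (limma adjusted p = 0.0216) and -0.42 ± 0.11 in fluoxetine arrays (adjusted p = 0.246). Without C3H/HeJ it was -0.38 (adjusted p = 0.21) and without CBA/J -0.37 (adjusted p = 0.154). Cacng6, a gamma subunit of voltage-gated calcium channels, showed the same pair in the opposite direction: 6.64 in C3H/HeJ and 6.81 in CBA/J, with 5.06 in BALB/cJ and 4.35 in A/J, against 4.34 to 5.35 in the others. Its difference of 1.26 ± 0.24 (adjusted p = 0.0216; 1.09 ± 0.26 in fluoxetine arrays) shrank to 0.96 without C3H/HeJ (adjusted p = 0.255) and 0.90 without CBA/J (adjusted p = 0.162). In both genes C3H/HeJ and CBA/J, but not A/J or BALB/cJ, lay outside the range of the others.

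Gm21953, a predicted gene represented by 1 probe set, had levels of 3.28 in A/J, 3.39 in BALB/cJ and 3.31 in C3H/HeJ, all under log2 4, against 6.41 to 10.10 in the other 26. CBA/J, at 6.59, lay within the range of the others. The fitted difference was -3.54 ± 0.65 (limma adjusted p = 0.0216) in water and -3.42 ± 0.76 in fluoxetine arrays, and it was -4.35 without CBA/J (adjusted p = 0.00286). The call did not hold without A/J, BALB/cJ or C3H/HeJ (differences of -3.29 to -3.25, adjusted p 0.0905 to 0.13).

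The remaining water calls had smaller differences in the fluoxetine arrays, and the gap between the treatments passed its own test for none of them. Slc26a7, an anion transporter, had levels of 5.77, 6.25, 6.27 and 7.20 in A/J, BALB/cJ, C3H/HeJ and CBA/J, against 4.05 to 6.21 with a median of 4.94 in the others. Its difference was 1.43 ± 0.28 in water (limma adjusted p = 0.0264) and 0.46 ± 0.33 in fluoxetine arrays (adjusted p = 0.984). In CBA/J the fluoxetine array read 4.41. Nkx2-2, a homeodomain factor of oligodendrocyte precursors, differed by -0.51 ± 0.10 in water (adjusted p = 0.0391) and -0.14 ± 0.12 in fluoxetine arrays. Its lowest level was 5.02 in BALB/cJ, and 33 of the 60 arrays lay within 0.02 of 1 value, 5.90. Sqle, the squalene epoxidase of cholesterol synthesis, had 9.97, 10.09, 9.92 and 9.91 in the 4 strains, against 10.05 to 10.35 in the others. The water difference was -0.25 ± 0.05 (adjusted p = 0.0264) and the fluoxetine difference -0.06 ± 0.12. None of these 3 calls held when CBA/J was left out (differences of 1.16, -0.48 and -0.23, adjusted p 0.144 to 0.162). Slc26a7 and Nkx2-2 were also lost without BALB/cJ (1.47 and -0.36, adjusted p 0.072 and 0.22), all 3 without C3H/HeJ (1.47, -0.57 and -0.23, adjusted p 0.0587 to 0.2), and Sqle without A/J (-0.25, adjusted p = 0.0922).

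**Figure D2:**
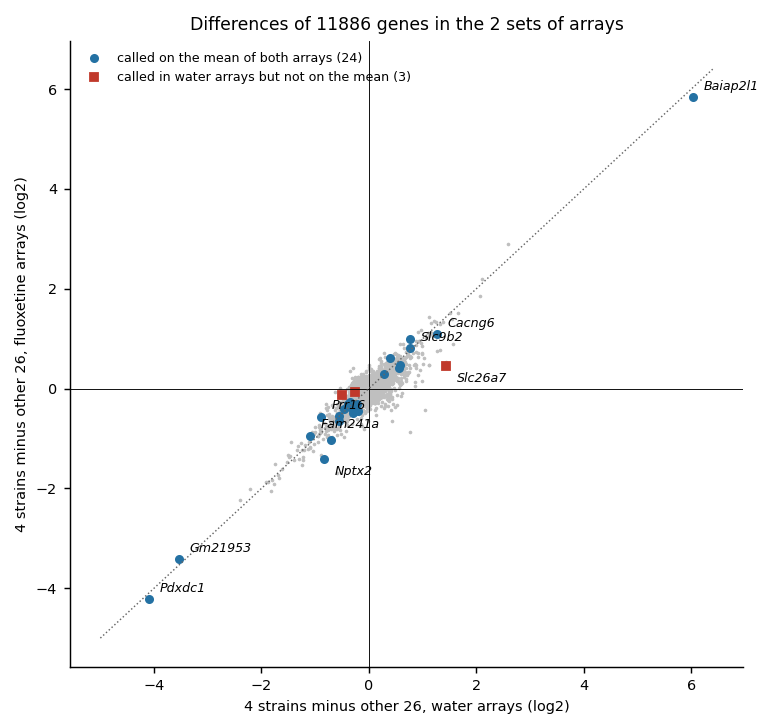
Difference between the 4 Bagg albino-derived strains and the other 26 in water arrays (x axis, log2) and in fluoxetine arrays (y axis, log2) for 11886 genes, with the dotted line marking equal values. The 24 genes called on the mean of both arrays lie in the quadrants of equal sign, and Slc26a7 lies off the line (1.43 in water, 0.46 in fluoxetine).

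Slc9b2, a sodium-proton exchanger, was higher in the 4 strains to about the same extent in both sets. Its water levels were 6.02, 5.58, 5.74 and 5.21 in A/J, BALB/cJ, C3H/HeJ and CBA/J, against 3.77 to 5.57 in the others, and its fluoxetine levels were 5.63, 5.61, 6.13 and 5.40, against 4.47 to 5.40. The difference was 0.77 ± 0.20 in water (limma adjusted p = 0.129), 0.81 ± 0.09 in fluoxetine (adjusted p = 1.51e-05) and 0.79 ± 0.13 in the mean of both (adjusted p = 0.00403). In water, 4 other strains (I/LnJ, C57BLKS/J, CE/J and DBA/2J) lay above CBA/J. Slc9b2 passed in the fluoxetine arrays and in the mean of both whichever of the 4 strains was left out, with adjusted p of at most 0.0494. Its nearest neighbours did not pass: Cxxc4 differed by 0.00 and Cisd2 by 0.30.

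Pdxdc1, a gene with a pyridoxal-dependent decarboxylase domain, split the 4 strains. The probe set used gave 3.75 in BALB/cJ, 3.75 in C3H/HeJ and 4.62 in CBA/J but 9.97 in A/J, against 9.87 or more in 24 of the other strains and low levels in DBA/2J (3.75) and RIIIS/J (4.76). Another Pdxdc1 probe set showed the mirror image: 10.56 in BALB/cJ, 10.52 in C3H/HeJ and 10.30 in CBA/J but 2.07 in A/J, against 2.07 in 24 of the others and at least 10.23 in DBA/2J and RIIIS/J. The same 5 strains stood apart on both probe sets in the fluoxetine arrays. The gene-level call (-4.22 ± 0.86 in fluoxetine, limma adjusted p = 0.0434; -4.10 ± 0.93 in water, adjusted p = 0.0778) took its sign from the probe set used, and the mirror probe set had the opposite sign. The remaining 2 probe sets that passed the filter followed the first, with water differences of -1.44 and -1.33. Without A/J the water difference was -5.59 (adjusted p = 0.00362), and without BALB/cJ, C3H/HeJ or CBA/J the fluoxetine call was lost (-3.87 to -3.65, adjusted p 0.173 to 0.383).

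The other fluoxetine calls were small, apart from Col22a1. Cript, a partner of the synaptic scaffold PSD-95, had water levels of 11.07, 10.96, 11.02 and 11.16 in the 4 strains, against 11.02 to 11.47 in the others, and differed by -0.31 ± 0.06 in fluoxetine (limma adjusted p = 0.0114) and -0.22 ± 0.06 in water. Fam104a differed by -0.43 ± 0.08 (adjusted p = 0.0114) and -0.29 ± 0.075. Zkscan5, a zinc finger gene, differed by -0.50 ± 0.10 (adjusted p = 0.0434) and -0.29 ± 0.09. Col22a1, a collagen, differed by 0.99 ± 0.20 (adjusted p = 0.0434) and 0.76 ± 0.20, with BALB/cJ (3.94 in fluoxetine, 3.74 in water) not higher than the others. Col22a1 reached log2 4 on 23 of 60 arrays, and its water median in the others was 3.93, so the size is not exact. Its other probe sets stayed under log2 4 on all 60 arrays. Kif5b, a kinesin motor, differed by 0.29 ± 0.06 (adjusted p = 0.0434) and 0.28 ± 0.07, but its 5 other probe sets gave 0.68, 0.51, 0.00, -0.10 and -0.37. None of these 5 fluoxetine calls held without C3H/HeJ (adjusted p 0.0722 to 0.383) or without A/J (0.0632 to 0.41). Without BALB/cJ, Cript and Zkscan5 were lost (0.0567 and 0.186), and without CBA/J all but Cript were (0.0755 to 0.166).

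The 24 genes called on the mean of both arrays added several that passed in neither set alone. Fam241a was lower by 1.02 on the log2 scale (-1.02 ± 0.22, limma adjusted p = 0.0379), with water levels of 6.66, 6.98, 6.97 and 6.90 in the 4 strains, against a median of 8.14 in the others. The low level was not particular to the 4: P/J had 6.31, and 3 others (SM/J, 129S1/SvImJ and LP/J) lay below the highest of the 4 in fluoxetine arrays. Ncapg2, a condensin II subunit, differed by -0.87 ± 0.19, Samd4, a Smaug-type RNA-binding protein, by -0.60 ± 0.13 and Lrig2, a leucine-rich repeat membrane protein, by -0.55 ± 0.12, each at adjusted p = 0.0379. Samd4 owed most of this to BALB/cJ (8.88 in water, with 9.98 to 10.11 in the other 3), and without BALB/cJ it differed by -0.30 (adjusted p = 0.223). Rtl6, Nelfa, Dcun1d3 and Ankmy2 were lower by smaller amounts (-0.36 to -0.31), and Ccdc39, a factor for motile cilia, and 2810032G03Rik were higher by 0.49 and 0.50. Of the 24, 6 still passed without A/J, 10 without BALB/cJ, 7 without C3H/HeJ and 6 without CBA/J. Baiap2l1 and Slc9b2 were among them in all 4 cases, though Baiap2l1 had met the filter only through the arrays of the 4 strains. Of the 27 genes called in any of these fits, 10 had another probe set that passed the filter, and 14 of those 18 probe sets had the same sign.

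**Figure D3:**
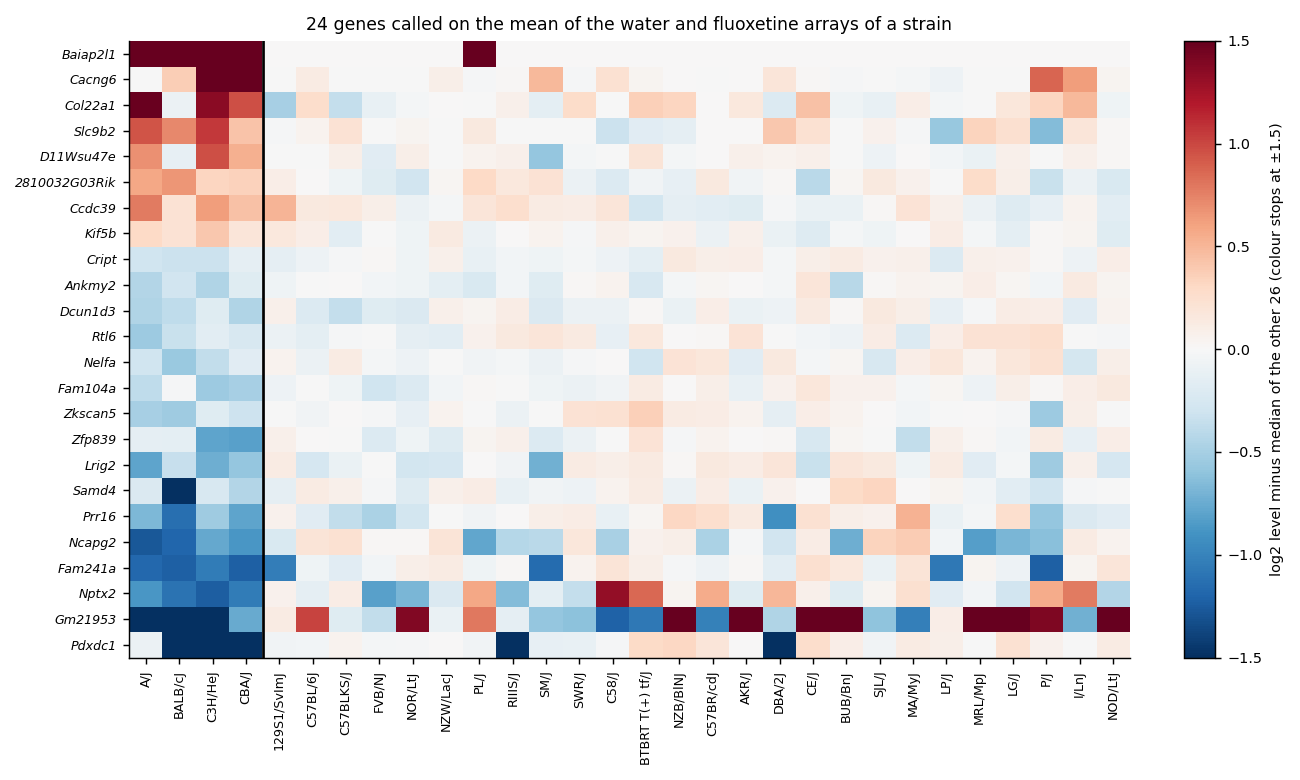
Level of the 24 genes called on the mean of both arrays (rows) in the 4 Bagg albino-derived strains (left of the black line) and the other 26 strains, as the mean of a strain's water and fluoxetine arrays minus the median of the other 26 (log2, colours stop at ±1.5). Baiap2l1 is red in the 4 strains and PL/J, and Pdxdc1 is blue in BALB/cJ, C3H/HeJ, CBA/J, DBA/2J and RIIIS/J.

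Over all genes, the 4 strains were unequally alike. As a description, log2 levels were centred on the mean of the 30 water arrays and correlated between strains over the 11886 genes, which share platform and normalization and are not independent. A/J and BALB/cJ were each other's closest strain (r = 0.37), as were C3H/HeJ and CBA/J (r = 0.32). C3H/HeJ was next closest to A/J (0.19) and to BALB/cJ (0.18). A/J (0.01) ranked 9 and BALB/cJ (-0.03) ranked 14 in closeness to CBA/J, whose second closest strain was DBA/2J (0.12). Outside the 4, the closest strains were PL/J for A/J (0.07) and 129S1/SvImJ for BALB/cJ (0.14) and C3H/HeJ (0.16). The fluoxetine arrays gave the same closest pairs, at 0.34 and 0.23. In them the second closest strain to CBA/J was I/LnJ (0.18), with DBA/2J at 0.16. For BALB/cJ, PL/J (0.12) came second in fluoxetine arrays, ahead of C3H/HeJ (0.11). There 129S1/SvImJ correlated with BALB/cJ at 0.04 and with C3H/HeJ at -0.01. C3H/HeJ correlated with DBA/2J at -0.01 in water and -0.03 in fluoxetine arrays. For comparison, the water and fluoxetine arrays of 1 strain correlated at 0.81 in A/J, 0.79 in BALB/cJ, 0.76 in C3H/HeJ and 0.71 in CBA/J.

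**Figure D4:**
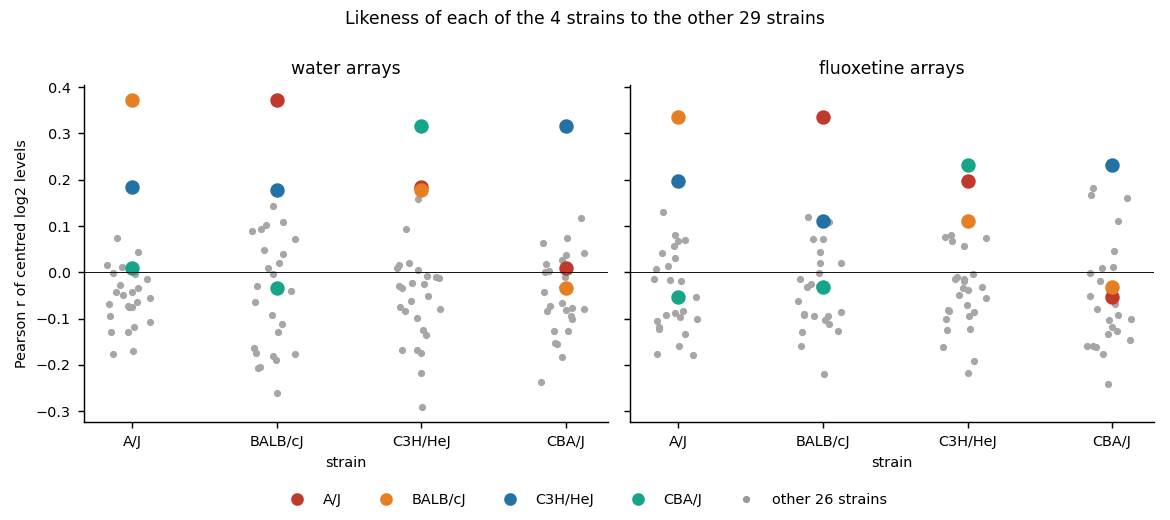
Pearson correlation (y axis) of each of the 4 Bagg albino-derived strains (x axis) with the other 3, in colour, and with the other 26, in grey, over 11886 centred genes, in water and fluoxetine arrays. A/J pairs with BALB/cJ (0.37 in water) and C3H/HeJ with CBA/J (0.32), while CBA/J lies among the grey points for A/J and BALB/cJ.

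Gene by gene, some levels in a given subset of the 4 strains lay outside the range of all remaining strains in both treatments. Of 11886 genes tested, A/J with BALB/cJ had 18 such genes, A/J with C3H/HeJ 13 and C3H/HeJ with CBA/J 10. Each of the other 3 pairs had 2. Pairs among the other 26 strains were not counted, so whether these counts are high for a pair of strains is not known. Of the subsets of 3, A/J, BALB/cJ and C3H/HeJ shared 2 genes (Gm21953 and Slc9b2) and A/J, C3H/HeJ and CBA/J shared Col22a1, and all 4 shared none. One of the A/J and BALB/cJ genes, named after its values were seen, was Slc17a7, the vesicular glutamate transporter VGLUT1 of cortical excitatory neurons. It read 10.65 in A/J and 10.84 in BALB/cJ, against 12.29 in C3H/HeJ, 12.22 in CBA/J and 11.65 to 13.28 in the other 26. The fluoxetine arrays gave 10.78 and 11.17 in A/J and BALB/cJ, against 12.71, 12.35 and 11.89 to 13.56. The other A/J and BALB/cJ genes included Hsd11b1, which regenerates active corticosterone (7.91 and 7.60, against 8.59 in C3H/HeJ and 8.85 in CBA/J and at least 8.30 in the others).

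C3H/HeJ and CBA/J were then set against A/J and BALB/cJ within 1 limma fit that also held the other 26 strains, and 6 genes (0.0505%) passed in water arrays. The count was 11 without BALB/cJ and 36 without C3H/HeJ. Cacng6 was higher by 2.02 ± 0.25 (adjusted p = 7.6e-05), and it also passed in the fluoxetine arrays (2.36, adjusted p = 1.16e-07). Cacng6 and Col8a1 were the genes that passed whichever of the 4 strains was left out. The remaining higher genes, Col6a3 (3.52 ± 0.63), Cytl1 (2.50 ± 0.48), Sned1 (1.18 ± 0.23) and Col8a1 (1.03 ± 0.15), encode collagens and other secreted or matrix proteins. Cytl1 and Col6a3 were under log2 4 in A/J and BALB/cJ, so the size of their difference is not exact. None of these 4 passed in fluoxetine arrays (adjusted p 0.535 to 1). Col6a3 read 4.74 in C3H/HeJ and 7.73 in CBA/J, against levels under log2 4 in A/J and BALB/cJ, and its difference without CBA/J was 2.02. It reached log2 4 on 7 of 60 arrays, these water arrays of C3H/HeJ and CBA/J among them, and the filter asked for 6. Col6a3 thus would not have been tested without the 2 arrays where it was high, and its p-values are given as a description. Cytl1 reached log2 4 on 9 of 60 arrays. Fam228b was lower (-1.14 ± 0.21, adjusted p = 0.0165), with 6.81 and 6.21 in C3H/HeJ and CBA/J, against 7.77 and 7.54 in A/J and BALB/cJ. Without CBA/J, Fam228b differed by -0.84 (adjusted p = 0.436), Cytl1 by 2.17 and Sned1 by 1.08 (adjusted p = 0.344 for both). Without A/J, Col6a3, Cytl1, Sned1 and Fam228b were lost (adjusted p 0.14 to 0.436), and without BALB/cJ Col6a3 and Cytl1 were (0.0599 and 0.0542).

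Markers of the meninges, the membranes that cover the cortex, also had higher mean levels in the water arrays of C3H/HeJ and CBA/J than of A/J and BALB/cJ. So did a joint list of pericyte and smooth muscle markers, mainly through Tagln, Acta2 and Myl9. The part of these markers in this contrast was not tested. The mean level of the 11 meninges markers was 9.64 in C3H/HeJ and 9.70 in CBA/J, against 8.59 in A/J, 8.65 in BALB/cJ and 7.66 to 9.31 (median 8.85) in the other 26. In fluoxetine arrays it was 9.42 in C3H/HeJ and 8.99 in CBA/J, against 8.66 in A/J, 8.84 in BALB/cJ and 7.90 to 9.61 in the others. None of the 11 was among the 6 genes called between the pairs, and their unadjusted p there ran from 0.00356 (Col1a1) to 0.174 (Ptgds). All 11 were above log2 4 in the 4 strains, and among the others the lowest value was 3.97, for Lum. The mean of the 7 tested markers of pericytes and smooth muscle was 9.78 in C3H/HeJ and 9.79 in CBA/J, against 8.96 in A/J, 9.30 in BALB/cJ and 8.87 to 9.84 in the other 26, and in fluoxetine arrays 9.59 and 9.45, against 9.05, 9.57 and 8.87 to 9.97. Tagln, an actin-binding protein of smooth muscle, read 9.69 in both C3H/HeJ and CBA/J, against 7.73 in A/J and 8.06 in BALB/cJ, while Des was under log2 4 on all water arrays. Acta2 read 11.67 and 11.59, against 9.91 and 10.18, and Myl9 9.79 and 9.64, against 8.44 and 8.30. The other tested members, Abcc9, Kcnj8, Pdgfrb and Rgs5, overlapped between the pairs. For example, Rgs5 read 12.49 and 12.72, against 12.37 and 12.97. Between the 4 strains and the other 26, 11 of 11 meninges markers had a positive difference in water, with a median of 0.43, against -0.03 over all genes tested, of which 4727 of 11886 had a positive difference. None passed the adjusted test, and 2 (Ogn, 0.85, and Aldh1a2, 0.69) had an unadjusted p under 0.05, as did 2.52% of all genes in that direction. With the meninges mean as a covariate, chosen after the data were seen, 3 water calls were left (Baiap2l1, Gm21953 and Prr16), and Slc26a7 (1.26), Sqle (-0.24), Cacng6 (1.16), Zfp839 (-0.41) and Nkx2-2 (-0.54) missed the threshold (limma adjusted p = 0.056 for each), against 1.43, -0.25, 1.26, -0.47 and -0.51 without the covariate. In a bulk sample, fewer cells of a type and less RNA per cell cannot be told apart.

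Each of the 4 strains also had levels of its own. Genes outside the range of the other 29 strains on the same side in both treatments numbered 243 in A/J, 145 in BALB/cJ, 94 in C3H/HeJ and 101 in CBA/J, against 78 to 493 (median 140) in the other 26, so the 4 lay within the range of the others. These levels chose the genes below and are given as a description. In A/J, Dnajc10, a chaperone of the endoplasmic reticulum, read 9.20, against at least 10.19 in all other strains, and Opcml, a cell adhesion molecule of neurons, 12.09 against at least 12.70. Uap1l1 was low in A/J (6.29, against at least 7.22) and Crybb1, a beta crystallin, high (8.19, against at most 7.41).

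In BALB/cJ, Zhx2, a transcriptional repressor, read 4.11 in water and 3.58 in fluoxetine arrays, against at least 5.89 and 5.88 in the other 29 strains. Samd4 (8.88) and Frmd4a (9.05) were low and Rtf2 high (10.67, against at most 10.00 in the other 26). C3H/HeJ had Etnppl, an enzyme of phosphoethanolamine breakdown found in astrocytes, at 2.37, against 7.58 to 8.06 in the other 3 strains. Of the other 26 strains 4 were also under log2 4, and the highest read 9.08. Zc3hav1l was low in C3H/HeJ (3.39, against at least 6.56), and Nme7 (10.90, against at most 9.84) and Kdm5d, a histone demethylase of the Y chromosome (9.78, against at most 8.58), were high. CBA/J had high Adamts15, a matrix protease (9.04, against at most 5.74), Col6a3 (7.73) and Plppr1 (9.97, against at most 9.08), and low Qrich1 (8.93, against at least 10.30).

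Of 34 genes listed for known strain variants, 24 were tested and none passed. Glo1, which detoxifies methylglyoxal, read 13.76 in A/J, 12.28 in BALB/cJ, 13.28 in C3H/HeJ and 12.85 in CBA/J, against 11.20 to 13.37 (median 12.01) in the others. On this probe set A/J lay above all 26 others, C3H/HeJ below 129S1/SvImJ (13.37) alone, and BALB/cJ below 9 of the 26. The order differed on other Glo1 probe sets, where BALB/cJ (10.45, 10.41 and 8.51) lay below the median of the others (10.71, 10.49 and 8.75). On these CBA/J (12.13, 11.62 and 9.57) lay above C3H/HeJ (11.74, 11.39 and 9.43). A/J read 12.51, 12.16 and 10.13 there, against at most 12.48, 12.24 and 10.33 in the others. The difference over the 4 was 0.79 ± 0.32 in water (limma adjusted p = 0.435) and 0.83 ± 0.32 in fluoxetine arrays (adjusted p = 0.803). Galc, the lysosomal galactosylceramidase, read 2.66 in CBA/J but 9.28 to 9.38 in the other 3, and 11 of the other 26 strains also lay under log2 4. A second Galc probe set went the other way in CBA/J (6.12, against 3.94 to 4.27 in the other 3), so the used probe set does not speak for the whole transcript. Alad, an enzyme of heme synthesis, read 10.74 to 11.20 in the 4 strains, against 8.97 to 11.52 in the others.

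**Figure D5:**
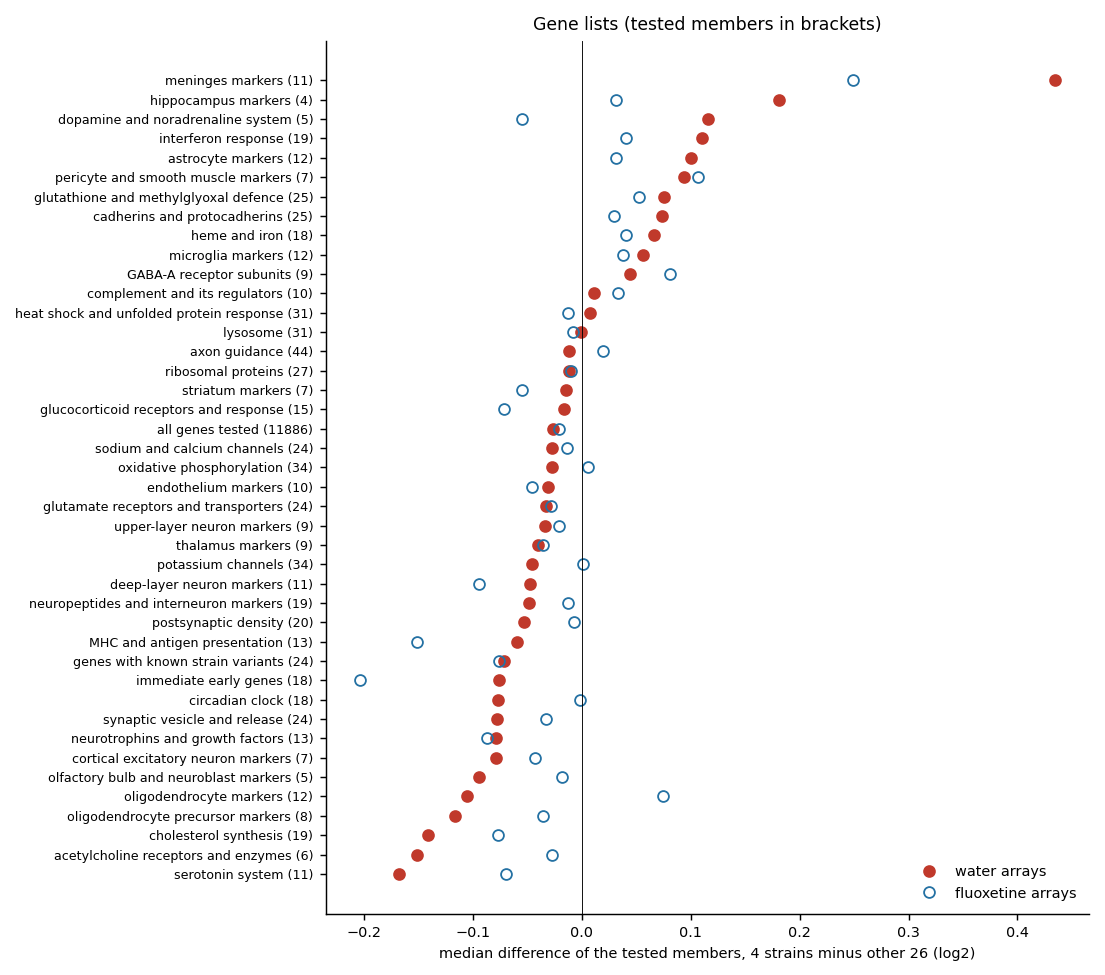
Median difference between the 4 Bagg albino-derived strains and the other 26 (x axis, log2) over the members of each gene list with at least 4 tested, in water arrays (filled) and fluoxetine arrays (open). The meninges markers have the highest water median of the lists drawn (0.43) and the serotonin system the lowest (-0.17), and the median of all genes is -0.03.

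Gene lists for pathways of the cortex shifted little. Of all list members tested, Sqle was the gene that passed. Among 19 tested genes of cholesterol synthesis, a pathway that supplies myelin and membranes, 15 had negative and 4 positive differences in water arrays, with a median of -0.14, against 7159 negative and 4727 positive among all genes. Of the 19, 7 had negative differences at an unadjusted p under 0.05 (Sqle, Cyp51, Srebf2, Idi1, Nsdhl, Mvd and Dhcr7), against 6.61% of all genes. In fluoxetine arrays 1 had (Cyp51), against 412 of 11886 genes, with a median of -0.08. The mean of the list was 9.80 in A/J, 9.79 in BALB/cJ, 9.65 in C3H/HeJ and 9.71 in CBA/J, against 9.75 to 10.00 in the others.

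Of the serotonin system, 11 of 19 members were tested, 8 with a negative difference and 3 with a positive one, against 7159 and 4727 of all genes, and none passed. Htr2c, a serotonin receptor edited in the brain, differed by -0.40 (unadjusted p = 0.0176, limma adjusted p = 0.431) in water and by -0.45 in fluoxetine arrays. Htr1f differed by -1.81 (adjusted p = 0.52). All 6 tested members of the acetylcholine list had negative differences, as 7159 of 11886 genes did (median -0.15 in water, -0.03 in fluoxetine), with Chrm1, a muscarinic receptor, at -0.18 (adjusted p = 0.201). Of the synaptic vesicle list, 20 of 24 had negative differences, against 7159 of 11886 genes, and 4 of these had an unadjusted p under 0.05, against 6.61% of all genes, led by Cplx2, a regulator of vesicle fusion (-0.31, adjusted p = 0.0882, and -0.10 in fluoxetine arrays). Another Cplx2 probe set gave -0.30 in water, but a further one, above log2 4 on all 60 arrays, went the other way (0.70). The used probe set thus does not speak for the whole Cplx2 transcript. Of the potassium channels, 25 of 34 had negative differences, against 7159 of 11886 genes, and 5 were at an unadjusted p under 0.05, against 6.61% of all genes, with a median of -0.05 in water and 0.00 in fluoxetine arrays. Glutathione and methylglyoxal defence had positive differences in 16 of 25 members, against 4727 of 11886 genes, led by Gstm2 (1.11, adjusted p = 0.276, and 0.48 in fluoxetine arrays). In water Gstm2 read 6.63 in BALB/cJ, 6.32 in C3H/HeJ and 6.25 in CBA/J. A/J, at 4.98, lay near the median of the others (4.83). Oxidative phosphorylation (median -0.03), ribosomal proteins (-0.01) and the heat shock list (0.01) lay close to the median of all genes.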

How the data were processed

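Cortex RNA of 30 inbred strains was hybridised to 60 Affymetrix arrays, 1 per strain and treatment. The authors deposited linear intensity values per probe set, made with GCRMA, as the submitters' processing notes name it without a version. GCRMA corrects background by probe sequence and normalizes between arrays. That the scale is linear was read from the values, which ran from 4.21 to 72333.5. Their log2 was taken, with no pseudocount. The number of arrays limits the precision, and no scan date was at hand, so batches could not be tested.

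Of 45101 probe sets, 34945 were paired with 1 gene, 932 with several, 9160 with none and 64 were controls. The platform annotation was used for names, and 18032 of 18193 genes were found in the RefSeq table, which also gave their order on the chromosomes. A gene was represented by the probe set with the highest mean over 60 arrays and tested if it reached log2 4 in at least 6 arrays (11886 genes).

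The water arrays of 4 strains and 26 strains were compared with limma 3.58.1 in R 4.3.3 (lmFit and eBayes, two-sided, Benjamini-Hochberg at 0.05), and the fluoxetine arrays likewise. Errors are standard errors of the limma fit. The code was tested on simulated data. Members, lists and tests were chosen with earlier results of these data known. Genes were named by rule: genes past the threshold in water arrays with the same sign in fluoxetine arrays, the leading members of each list, the 12 leading genes of the comparison within the 4 strains, 4 genes per strain by distance from the other 29, and the known variant genes. Called or separated genes outside these rules were named after their values were seen. Alternatives covered the filter, the probe set rule, normalization, prior, strains left out, and both arrays of a strain averaged or fitted with strain as a random block.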

Additional observations from a re-analysis of the deposited data

Results flagged for a closer look

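Among the 4 water arrays of the Bagg albino-derived strains, 13 of the 114 named genes had 1 array far from the other 3, judged by the gap to its nearest neighbour over the whole range of the 4 against Dixon's 95% critical value for 4 samples. Chance alone flags about 1 group in 20, and several of these genes were named for standing apart in 1 strain. CBA/J was high for Drd4 (1.0), Adamts15 (0.981) and Gm21953 (0.965) and low for Galc (0.984). C3H/HeJ was low for Zc3hav1l (0.957) and Etnppl (0.916) and high for Nme7 (0.887). A/J was low for Dnajc10 (0.952) and Uap1l1 (0.868) and high for Pdxdc1 (0.86). BALB/cJ was low for Col22a1 (0.924), Samd4 (0.893) and Gabrb1 (0.832). Drd4, a dopamine receptor, read 5.27 in CBA/J and 3.75, under log2 4, in the other 3, while the fluoxetine array of CBA/J read 4.32.

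The difference between the 4 strains and the other 26 itself differed between treatments for Baiap2l1 (fluoxetine minus water -0.20, limma adjusted p = 3.95e-05). The levels were 7.75, 8.59, 7.83 and 8.60 in fluoxetine arrays and 8.01, 8.71, 8.04 and 8.80 in water arrays of A/J, BALB/cJ, C3H/HeJ and CBA/J, while 25 of the other strains were at the same floor in both, which leaves the test nearly no spread between strains.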

How the results depend on the processing

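The 27 called genes had 427 values under the alternatives, each set against the water fit. Of these, 343 kept their sign and their side of the threshold, 38 kept the sign but lost the call, 46 gained it and 0 changed sign. Only the 8 water calls could lose a call, and for the other genes keeping their side meant staying uncalled. Baiap2l1 passed in 16 of 16 alternatives, Prr16 in 14 of 16, Gm21953 in 13 of 16 and Zfp839 in 11 of 16. Since Baiap2l1 met the filter only through the high levels of the 4 strains, its count is a description and no measure of robustness. Cacng6 passed in 10 of 14, Slc26a7 in 9 of 16, Sqle in 8 of 16 and Nkx2-2 in 7 of 16. The water count of 8 was 3 without the C57/C58-related strains, 3 with the meninges mean as a covariate, 24 with both arrays averaged, 58 with strain as a random block, and 5 to 11 with 1 of the 4 strains left out. The fluoxetine count of 8 was 4 with no filter, 3 under a minimum of log2 6, 4 where a gene's probe sets were averaged, 5 after quantile normalization, 5 without the C57/C58-related strains, 4 without MRL/MpJ, 5 without PL/J, 13 with the meninges covariate, and 3 to 9 with 1 strain left out. The count called in both, 1, was 2 with probe sets averaged, 2 without DBA/2J and C57BLKS/J, 2 with the covariate, and 1 to 5 with 1 strain left out. The 24 calls on the mean of both arrays became 8 to 15 with 1 strain left out. The 6 calls of C3H/HeJ and CBA/J against A/J and BALB/cJ became 41 with no filter, 2 under a minimum of log2 6, 11 with probe sets averaged, 2 in fluoxetine arrays, and 7 to 36 with 1 strain left out. The cause of these moves was not tested. The covariate, PL/J and the omissions for the last 2 counts were chosen after seeing the data.

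No paired analysis was possible because the 4 strains and the other 26 share no animal, pool or strain, and no replicate number in the labels links them. The 4 strains are not independent by descent, other strains share parts of the same ancestry, and levels near the floor give bounds only.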
